A study of Mus musculus with 3 samples.

Results

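CpG-poor promoters are gene starts with few CpG sites around them, and their DNA methylation was followed here in spermatogonia of WT, *Pld6* KO and *Dnmt3l* KO mice. A promoter was taken as the window from 1 kb upstream to 500 bp downstream of the annotated start of an autosomal protein-coding gene, and it was called CpG-poor when 3 to 12 distinct CpG positions in it had a call in at least 1 of the libraries. Olfactory and vomeronasal receptor genes (symbols starting with *Olfr* or *Vmn*) were left out, which removed 1454 of 20558 genes. Of the 19104 remaining genes, 2662 had a window with 3 to 12 CpG positions. A minimum of 5 calls in each library was met by 1890 of these, which are the CpG-poor promoters described here, out of 17775 promoters of any CpG number that met the same minimum. The 772 windows that missed it did so mostly in *Dnmt3l* KO, where 728 had under 5 calls, compared with 160 in WT and 79 in *Pld6* KO. The rule used the number of CpG positions and calls, but not the methylation itself. Since it counted covered positions, 288 of the 1890 windows hold more than 12 CG in the reference (83 at most). With the positions counted in the reference instead, 1607 promoters were left, with medians of 0.842 in WT and *Pld6* KO and of 0.286 in *Dnmt3l* KO.

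The data are lists of CpG sites from whole-genome bisulfite sequencing, a method that converts unmethylated cytosine so that it reads as thymine and leaves methylated cytosine as it is. Every CpG site covered by a read thus yields 1 call, methylated or unmethylated. The cells were spermatogonia of C57BL6/J mice at postnatal day 7 (P7), isolated from the testis by cell sorting for the surface protein EpCAM. The groups were WT, *Pld6* KO and *Dnmt3l* KO, with 1 library analysed for each. The labels name no further allele or treatment. The study's methods count mice heterozygous for the *Pld6* or the *Dnmt3l* mutation as WT, beside *Pld6* wild-type mice, and describe biological replicates for each category. Which of these the WT library came from is not given in the labels, and the other replicates were not analysed here. Genotype and library therefore cannot be told apart, and no test between genotypes was possible.

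In mammals, CpG-rich promoters are mostly free of methylation, whereas gene starts with few CpG sites usually carry it in cells that do not use the gene, and many of them belong to genes of a single tissue. Male germ cells lose most of their methylation in the embryo and acquire a new pattern in prospermatogonia before birth. DNMT3L, a cofactor without enzyme activity of its own, is needed by the *de novo* methyltransferases for this. PLD6, a protein of the mitochondrial surface, takes part in making the piRNAs that guide methylation to some retrotransposons.

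Depth differed between the libraries, with 43757722 calls for WT, 64076569 for *Pld6* KO and 19289688 for *Dnmt3l* KO. The autosomal methylation levels, in the same order, were 0.704, 0.724 and 0.303. A methylation level is the number of methylated calls divided by all calls, as a fraction from 0 to 1. The median CpG-poor promoter was covered by 19 calls (WT), 28 calls (*Pld6* KO) and 9 calls (*Dnmt3l* KO), so that a single promoter is known least well in *Dnmt3l* KO. Intervals below are 95% Wilson intervals. They cover counting error only and treat calls of the same read as independent. The stretch 2 to 4 kb before the *H19* start, which is methylated in male germ cells, had levels of 0.859, 0.884 and 0.148 in WT, *Pld6* KO and *Dnmt3l* KO. The promoters of *Kcnq1ot1*, *Peg3*, *Mest* and *Plagl1*, which are unmethylated in male germ cells, were at 0.0306 to 0.140 in WT, at 0.0512 to 0.110 in the *Pld6* KO and at 0 to 0.0423 in the *Dnmt3l* KO. The window at the annotated *Snrpn* start was higher, with a level of 0.5 from 10 calls in *Pld6* KO and of 0.75 from only 4 calls in WT, and had no call in *Dnmt3l* KO.

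The sequences of 5 promoters show what few CpG sites look like. Each runs from 250 bases before the start to 50 bases from the start on, 5′ to 3′ on the strand of the gene, from the RefSeq assembly GRCm38.p6 (mm10), with the CpG sites in capitals. *Il2*, the T cell growth factor interleukin 2, stands for the levels typical of the class, methylated in WT and lower in *Dnmt3l* KO. *Alb*, which encodes serum albumin, and *Dennd4a*, which encodes an activator of Rab GTPases, kept high levels in *Dnmt3l* KO. The *Dennd4a* start shown is not that of its outermost curated transcript, which begins at position 64811011. *Neurod4*, which encodes a transcription factor of developing neurons, was nearly unmethylated in all 3 libraries. *Tnfrsf26*, a gene of the tumour necrosis factor receptor superfamily, had the largest decrease in *Pld6* KO among the well covered promoters.
*Il2*, chr3:37125905-37126204, - strand: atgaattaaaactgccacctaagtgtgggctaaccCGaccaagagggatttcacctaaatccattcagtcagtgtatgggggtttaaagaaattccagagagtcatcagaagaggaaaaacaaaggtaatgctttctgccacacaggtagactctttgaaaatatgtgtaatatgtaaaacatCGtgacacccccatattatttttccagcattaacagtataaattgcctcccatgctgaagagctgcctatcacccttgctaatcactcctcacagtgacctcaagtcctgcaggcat
*Alb*, chr5:90460620-90460919, + strand: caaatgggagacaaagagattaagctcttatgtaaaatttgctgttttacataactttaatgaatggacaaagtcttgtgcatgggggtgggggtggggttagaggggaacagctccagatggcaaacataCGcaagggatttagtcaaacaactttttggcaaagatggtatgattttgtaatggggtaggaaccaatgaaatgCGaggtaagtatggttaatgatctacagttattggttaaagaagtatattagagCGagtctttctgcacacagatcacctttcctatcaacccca
*Dennd4a*, chr9:64805874-64806173, + strand: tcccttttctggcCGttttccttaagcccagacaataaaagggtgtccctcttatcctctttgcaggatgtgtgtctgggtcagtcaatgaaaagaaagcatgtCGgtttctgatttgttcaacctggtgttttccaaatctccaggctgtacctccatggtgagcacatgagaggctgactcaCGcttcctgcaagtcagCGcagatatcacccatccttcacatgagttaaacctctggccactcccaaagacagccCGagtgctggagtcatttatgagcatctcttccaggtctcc
*Neurod4*, chr10:130280205-130280504, - strand: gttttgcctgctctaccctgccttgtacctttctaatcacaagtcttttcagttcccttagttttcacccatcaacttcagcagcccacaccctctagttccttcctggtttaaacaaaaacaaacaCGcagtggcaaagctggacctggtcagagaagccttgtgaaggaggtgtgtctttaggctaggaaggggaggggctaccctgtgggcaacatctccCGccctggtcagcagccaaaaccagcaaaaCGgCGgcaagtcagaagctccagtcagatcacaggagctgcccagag
*Tnfrsf26*, chr7:143627796-143628095, - strand: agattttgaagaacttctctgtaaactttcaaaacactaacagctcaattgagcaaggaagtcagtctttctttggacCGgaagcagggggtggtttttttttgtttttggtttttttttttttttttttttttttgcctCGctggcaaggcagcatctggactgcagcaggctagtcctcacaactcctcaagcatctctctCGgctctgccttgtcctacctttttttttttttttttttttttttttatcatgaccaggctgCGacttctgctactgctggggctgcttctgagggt

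These stretches of 300 bases hold 2 CpG sites in *Il2*, 3 in *Alb*, 5 in *Dennd4a*, 4 in *Neurod4* and 4 in *Tnfrsf26*. The whole windows hold 13, 14, 13, 13 and 12 CG in the reference, in the same order. All but *Tnfrsf26* thus exceed 12 when counted there and are members by their covered positions. At the CpG sites 66 and 49 bases before the *Dennd4a* start, 6 of 6 calls each were methylated in *Dnmt3l* KO, and 2 of 3 and 4 of 5 in WT. At the 4 sites of *Neurod4*, no call was methylated in any library. The sites shown for *Il2* and *Alb* had no call in *Dnmt3l* KO. The *Dnmt3l* KO levels of these genes come from the rest of their windows. Over its whole window, *Il2* (chromosome 3, 37125454 to 37126954) had 15 of 17 calls methylated in WT, 29 of 33 in the *Pld6* KO and 4 of 11 in the *Dnmt3l* KO. The 300-base stretches of the class held a median of 2 CpG sites, and 250 of the 1890 (13.2%) held none, compared with a median of 13 and a share of 2.05% over all promoters with enough calls.

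CpG-poor promoters were highly methylated in WT and *Pld6* KO, and much less so in *Dnmt3l* KO. The medians were 0.841 (WT), 0.840 (*Pld6* KO) and 0.286 (*Dnmt3l* KO), with quartiles of 0.696 and 0.923, 0.723 and 0.906, and 0.125 and 0.455. Over all 17775 promoters the medians were 0.0359, 0.0442 and 0.00680. Pooled over all calls of the class, the levels were 0.763 (interval 0.759 to 0.767), 0.779 (0.775 to 0.782) and 0.302 (0.296 to 0.309). In WT, 1554 of the CpG-poor promoters (82.2%) lay above 0.6 and 76 (4.02%) below 0.2, whereas 71.2% of all promoters lay below 0.2. In *Dnmt3l* KO, 196 (10.4%) lay above 0.6 and 693 (36.7%) below 0.2, and 301 had no methylated call. No methylated call in 5 calls still allows a level of up to 0.434 by the Wilson interval, so that such a promoter cannot be called unmethylated singly.

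**Figure D1:**
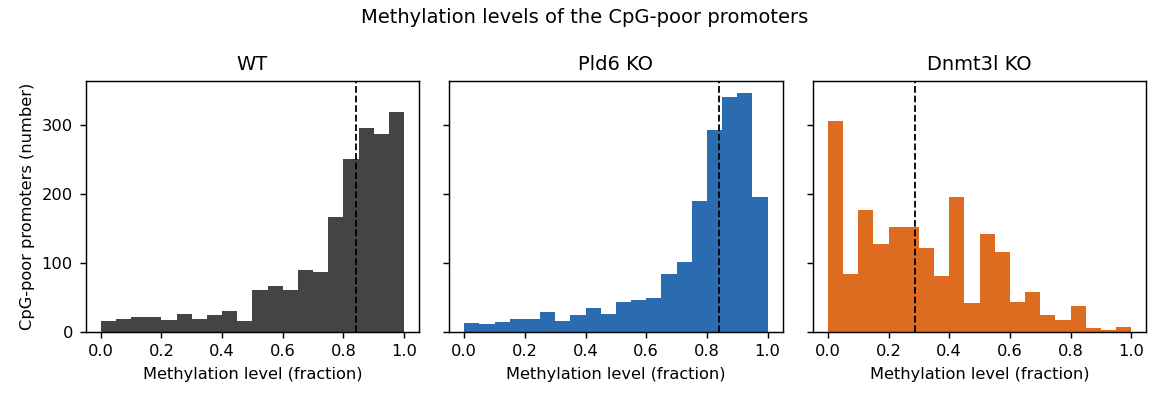
Number of CpG-poor promoters by methylation level (fraction, in steps of 0.05) in WT, *Pld6* KO and *Dnmt3l* KO, 1 library each; the dashed lines are the medians of 0.841, 0.840 and 0.286. The WT and *Pld6* KO promoters crowd at the right, and those of *Dnmt3l* KO spread over the left, with a bar at 0 that holds the 301 promoters without a methylated call.

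Within the class, the medians of WT and *Pld6* KO hardly moved with the number of CpG positions. Over promoters with 3 to 12 positions, the WT medians lay between 0.828 and 0.857, the *Pld6* KO medians between 0.8 and 0.846 and the *Dnmt3l* KO medians between 0.2 and 0.333. At the upper edge, the 298 promoters with 12 positions had medians of 0.828, 0.844 and 0.258 in WT, *Pld6* KO and *Dnmt3l* KO, and the 296 with 13 positions had 0.841, 0.845 and 0.333. At the lower edge, the 22 promoters with 3 positions had 0.840, 0.824 and 0.333, and the 6 with 2 positions had 0.867, 0.919 and 0.155. The 239 members whose least covered library had 5 calls had medians of 0.824, 0.833 and 0.2, and the 189 windows with 4 calls there had 0.846, 0.846 and 0.250. Past the class, the WT median was 0.778 at 16 positions, 0.636 at 20, 0.274 at 24 and 0.0481 at 40.

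**Figure D2:**
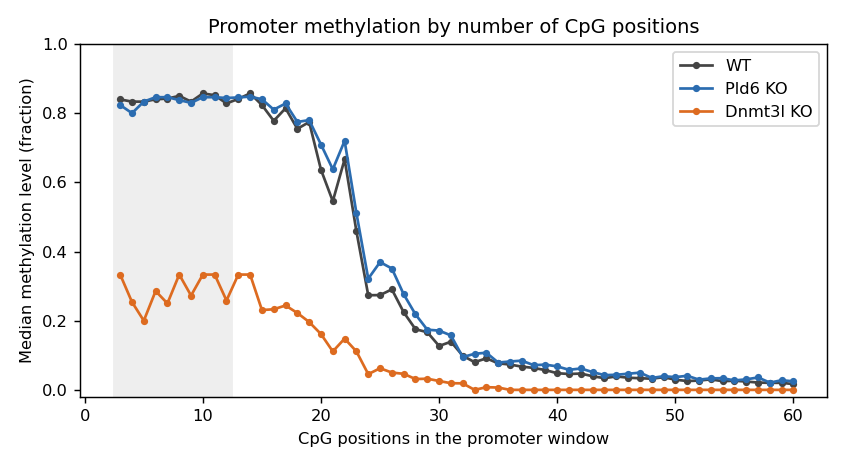
Median methylation level (fraction) of promoters with 3 to 60 CpG positions in their window, for WT, *Pld6* KO and *Dnmt3l* KO; the grey band marks the CpG-poor promoters. The WT and *Pld6* KO curves are nearly level within the band and fall beyond it, in WT from 0.828 at 12 positions to 0.274 at 24.

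In *Dnmt3l* KO, 1828 of the 1890 CpG-poor promoters (96.7%) were lower than in WT, and the median difference over all 1890 was 0.476. A decrease of at least 0.3 was seen at 1407 (74.4%), compared with 20.7% of all promoters tested, and an increase of this size at 0, compared with 0.00563% of all. Most promoters of other kinds could not lose this much, since only 25.9% of all promoters had a WT level of at least 0.3, compared with 94.0% (1776) of the CpG-poor ones. Promoters with a WT level of at least 0.6 were compared without regard to GC content. The medians of the CpG-poor ones and of those with 13 to 40 positions were then alike. The 1577 CpG-poor promoters had 0.871 in WT and 0.333 in *Dnmt3l* KO, the 2212 promoters with 13 to 40 positions had 0.870 and 0.333, and the median share of the WT level left in *Dnmt3l* KO was 0.392 and 0.390. Fisher's exact test on the calls (two-sided, Benjamini-Hochberg adjusted over all 17775 promoters) compares the 2 libraries and not the genotypes. It called 795 CpG-poor promoters (42.1%) lower in *Dnmt3l* KO at an adjusted p under 0.05. The share was 19.1% over all promoters and 43.7% over those with 13 to 40 positions. Among the 85 CpG-poor promoters with at least 20 calls in each library, the test called 59. The share over all promoters with as many calls was not counted, so that the 59 do not set the class apart.

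The level left in *Dnmt3l* KO differed with the base composition around the promoter. The class was split into 5 equal groups by the GC content of the 100 kb around the start. From lowest to highest GC content, the medians in *Dnmt3l* KO were 0.160, 0.2, 0.323, 0.4 and 0.4, whereas those in WT were 0.778, 0.833, 0.854, 0.857 and 0.857. Across the 1890 promoters, the GC content of the 100 kb and the level had a Pearson's r of 0.339 in *Dnmt3l* KO, 0.163 in WT and 0.171 in *Pld6* KO, as a description across promoters that share a library and neighbouring sequence. The same order was seen in promoters with at least 0.6 in WT. In these, the medians in *Dnmt3l* KO from lowest to highest GC group were 0.2, 0.25, 0.333, 0.417 and 0.429 for CpG-poor promoters. For promoters with 13 to 40 positions they were lower in each group, at 0.118, 0.225, 0.273, 0.333 and 0.370. Of the latter, 1135 of 2212 lay in the highest GC group, compared with 332 of 1577 CpG-poor ones. The median number of *Dnmt3l* KO calls in the CpG-poor ones was 8 in the lowest and 10 in the highest GC group. Its part in the difference between GC groups was not tested.

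In *Pld6* KO the median of the class was close to that of WT. Its promoters were lower than in WT in 927 cases, higher in 920 and equal in 43, and the median difference was 0. A decrease of at least 0.3 was seen at 43 promoters (2.28%), compared with 0.377% of all promoters, and an increase of at least 0.3 at 60 (3.17%), compared with 0.692%. The part of counting error in these shares was not tested. With at least 10 calls in each library, the decreases made up 0.802% of 873 promoters, and with at least 20 calls, 0 of 85. The increases made up 2.75% of the same 873 promoters and 3.53% of the 85, which is 3 promoters. Shares over all promoters at these minimums were not counted. Fisher's exact test called no CpG-poor promoter lower in *Pld6* KO after adjustment (50 had an unadjusted p under 0.05), compared with 0.354% of all promoters, and 8 higher (77 unadjusted), compared with 1.29%.

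**Figure D3:**
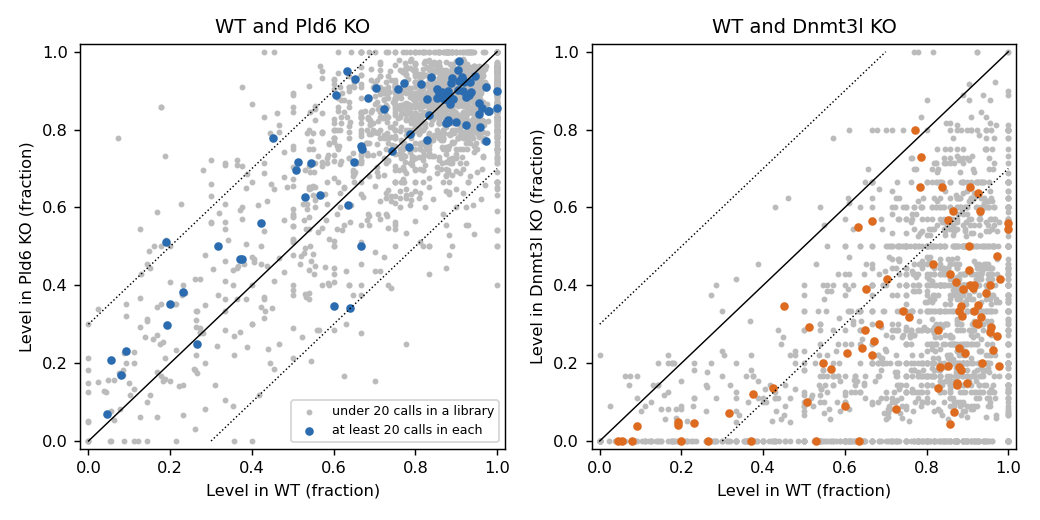
Methylation level (fraction) of each CpG-poor promoter in WT (x axis) and in *Pld6* KO or *Dnmt3l* KO (y axis); coloured points have at least 20 calls in each library, the solid line marks equal levels and the dotted lines a difference of 0.3. The points of *Pld6* KO lie on both sides of the solid line, 927 below and 920 above it, and 1828 of the 1890 points of *Dnmt3l* KO lie below it.

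The 8 promoters called higher in *Pld6* KO stand for 7 windows, since *Esp6* and *Gm44501* share their start. They are named because of this test, after their values were seen. *1700008P02Rik* had 2 of 28 calls methylated in WT, 28 of 36 in the *Pld6* KO and 2 of 14 in the *Dnmt3l* KO, which was the largest contrast (adjusted p = 1.01e-05 by Fisher's exact test). *Esp6*, a member of the exocrine gland-secreted peptide family, had 3 of 17, 48 of 56 and 3 of 15 (adjusted p = 0.000207 by Fisher's exact test). *Kcnj16*, a potassium channel subunit, had 1 of 44, 21 of 62 and 0 of 14. In these 3 windows, WT and *Dnmt3l* KO were both low and *Pld6* KO was the high library. *Il1f8*, a cytokine of the interleukin 1 family, had the same order with levels of 0.188, 0.733 and 0.0588. *Dscaml1* (0.6, 0.930 and 0.5) and *Fbxw21* (0.567, 0.964 and 0.385) were intermediate in WT. *LOC100504180* had 174 of 411 calls methylated in WT, 312 of 557 in the *Pld6* KO and 22 of 162 in the *Dnmt3l* KO, the most calls of any promoter of the class and far above its medians of 19, 28 and 9.

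CpG-poor promoters lay on balance above their surroundings in WT and *Pld6* KO. In each library, the level of a promoter was compared with that of 10 kb on each side of its window, for the 1879 promoters with at least 20 calls in the flanks. The median of the differences (promoter minus flanks) was 0.0714 in WT, 0.0744 in the *Pld6* KO and 0.0247 in the *Dnmt3l* KO, and 1217 (64.8%), 1237 (65.8%) and 1020 (54.3%) of the promoters lay above their flanks. The direction in *Dnmt3l* KO did not hold under every setting, with a median of -0.0129 over the 85 promoters with at least 20 calls and of 0 for windows starting 500 bp upstream. Promoters with 13 to 40 CpG positions lay below their flanks, by medians of -0.179, -0.171 and -0.141, and those with over 40 positions had medians of -0.632, -0.659 and -0.308. Over all promoters the medians were -0.512, -0.543 and -0.242. Among promoters with a WT level of at least 0.6, the CpG-poor ones and those with 13 to 40 positions both lay above their flanks. The medians were 0.109, 0.0908 and 0.0566 for the CpG-poor ones, and 0.127, 0.0930 and 0.0134 for the others. In WT, 73.6% and 76.7% of them lay above. Choosing by the WT level raises the WT difference by construction. The level of a CpG-poor promoter and that of its flanks had a Pearson's r of 0.215 in WT, 0.246 in the *Pld6* KO and 0.356 in the *Dnmt3l* KO, again as a description.

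The positions around the start fell into 2 patterns. At 290 of the promoters, a CpG-dense stretch (a window of 500 bp with at least 25 CpG sites of the reference) began between 500 bp and 3 kb downstream of the start, and at 1600 there was none. This split was chosen after the profile had been seen. Without a dense stretch, the level in WT stayed between 0.692 and 0.844 in all steps of 100 bp within 2 kb of the start on either side, that in *Pld6* KO between 0.722 and 0.855, and that in *Dnmt3l* KO between 0.256 and 0.345. Next to a dense stretch, the WT level was 0.829 at 400 to 300 bp before the start, 0.626 in the first 100 bp after it, 0.318 at 400 to 500 bp and 0.0736 at 1000 to 1100 bp. *Pld6* KO followed with 0.826, 0.658, 0.396 and 0.0881. *Dnmt3l* KO was at 0.327, 0.189, 0.118 and 0.0268 in the same steps. The median levels of the 290 promoters were 0.750, 0.778 and 0.226, and those of the 1600 were 0.851, 0.846 and 0.286. The annotated start of a gene is that of its outermost transcript, predicted models included. It coincided with the start of the outermost curated transcript in 975 of the 1890 genes, lay over 1 kb from it in 440, and had no curated transcript in 108. The 440 include *Tmeff2*, *S100a3*, *Ntng1*, *Dennd4a*, *Sys1*, *Gh*, *Myh6*, *Wdr1*, *Dscaml1* and *1700001O22Rik*. The levels given for these genes were not measured at their curated starts.

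**Figure D4:**
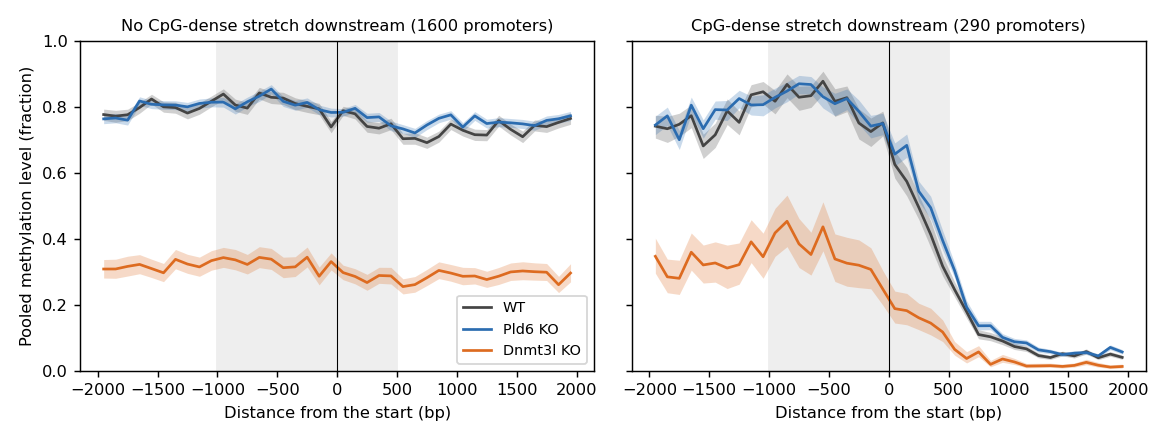
Pooled methylation level (fraction) in steps of 100 bp over the 2 kb on either side of the start, in WT, *Pld6* KO and *Dnmt3l* KO, for the 1600 CpG-poor promoters without and the 290 with a CpG-dense stretch downstream; the bands are 95% Wilson intervals and the grey area is the promoter window. The left curves are flat, and the right curves of WT and *Pld6* KO fall from over 0.8 upstream to below 0.1 past 1 kb downstream.

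From gene symbols, 30 groups were formed, some named for a tissue and others for a gene family. Whether the groups as a whole are more common in the class than among all genes was not tested. They took in 374 of the 1890 promoters, with medians of 0.839 in WT, 0.833 in the *Pld6* KO and 0.229 in the *Dnmt3l* KO, compared with 0.842, 0.842 and 0.3 for the other 1516. A decrease of at least 0.3 in *Dnmt3l* KO was seen at 308 of the 374 (82.4%) and at 1099 of the others (72.5%). In the whole class the share was 74.4%, and the counts by group below are to be read beside it. Among groups with at least 7 promoters, it ran from 52.9% (Schlafen and interferon-induced genes) to 100% (such as the prolactin family). Among those near the class share were the cornified envelope genes (78.3%) and the lectin receptors of natural killer cells (76.9%). The median of a group was lower in *Dnmt3l* KO than in WT in 30 of 30 groups. In *Pld6* KO it was lower than in WT in 16, higher in 13 and equal in 1. The genes of a group often lie side by side and share sequence, so that they are not independent.

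Plasma proteins of the liver, cytochrome P450 families 2 to 4 and serpins had high medians in WT and lower ones in *Dnmt3l* KO. The P450 genes and the serpins were grouped by gene family and not by tissue. The plasma proteins of the liver had 21 CpG-poor promoters of 68 genes, with medians of 0.909 in WT, 0.857 in the *Pld6* KO and 0.333 in the *Dnmt3l* KO. Of the 21, 16 were lower by at least 0.3 in *Dnmt3l* KO (76.2%, compared with 74.4% of the class). *Mbl2*, a lectin that starts the complement cascade, had 20 of 21 calls methylated in WT and 3 of 9 in *Dnmt3l* KO. *Fgg*, the gamma chain of fibrinogen, was low among them, with 0.279 in WT, 0.277 in the *Pld6* KO and no methylated call of 9 in the *Dnmt3l* KO. *C4bp*, a regulator of complement, was at 0.909, 0.870 and 0.800. The cytochrome P450 families 2 to 4, enzymes that oxidise drugs, steroids and fatty acids, had 35 promoters of 71 genes, with medians of 0.765, 0.789 and 0.150, and 28 were lower by at least 0.3. The range over these 35 was 0.263 to 1 in WT and 0 to 0.667 in *Dnmt3l* KO. *Cyp2e1*, which oxidises ethanol, had 28 of 36, 35 of 41 and 10 of 19 calls methylated. The serpins, inhibitors of serine proteases, had 24 promoters with medians of 0.862, 0.785 and 0.211, and 23 were lower by at least 0.3. The exception was *Serpina16*, with 0.656 in WT and 7 of 10 calls in *Dnmt3l* KO.

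Groups of skin, placenta and the senses were alike in direction and differed in what was left in *Dnmt3l* KO. The keratin-associated proteins of hair had 27 promoters with medians of 0.857, 0.840 and 0.182, and 24 were lower by at least 0.3. The genes of the cornified envelope, the outer coat of the skin, had 23 promoters with medians of 0.857, 0.893 and 0.333, of which 18 were lower. The prolactin family, hormones made mostly by the rodent placenta, had 12 promoters with medians of 0.879, 0.769 and 0.0625, and 12 of 12 were lower. *Prl5a1* had 30 of 34 calls methylated in WT, 35 of 41 in the *Pld6* KO and 1 of 8 in the *Dnmt3l* KO. The bitter taste receptors had 16 promoters with medians of 0.809, 0.770 and 0.183, and 15 were lower. *Tas2r135* had 22 of 25, 27 of 30 and 7 of 21. The Mas-related receptors of sensory neurons and mast cells had 10 promoters with the lowest medians of the groups with at least 7 promoters, 0.607 in WT, 0.477 in the *Pld6* KO and 0 in the *Dnmt3l* KO.

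Immune genes mostly had high levels in WT, with exceptions. The lectin receptors of natural killer cells had 13 promoters with lower medians of 0.667 in WT and 0.684 in the *Pld6* KO. Their median in *Dnmt3l* KO was 0.182. Of the 13, 2 were below 0.2 in WT, and 10 were lower by at least 0.3 in *Dnmt3l* KO. The interleukins and interferons had 10 promoters with medians of 0.873, 0.797 and 0.219, and 9 were lower by at least 0.3 in *Dnmt3l* KO. *Ifnb1*, interferon beta, had 27 of 31 calls methylated in WT, 58 of 66 in the *Pld6* KO and 9 of 22 in the *Dnmt3l* KO. *Ifnz* had no methylated call in 10, 9 and 8 calls, but its window holds 50 CG in the reference, of which 10 positions had a call. The Schlafen and interferon-induced genes had 17 promoters, with 0.857, 0.857 and 0.400, of which 9 were lower. *Slfn2* was at 0.684, 0.829 and 0.647. Outside the immune genes, the kallikreins and trypsins, secreted proteases, had 18 promoters with medians of 0.910, 0.888 and 0.458. Their median in *Dnmt3l* KO was the highest of the groups with at least 7 promoters. In *Prss55*, a protease of the testis, 22 of 22, 32 of 35 and 10 of 10 calls were methylated.

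Most of the genes that germ cells use after meiosis were outside the class, as were most genes in general. The spermatid and sperm genes had 28 CpG-poor promoters of 131 genes (21.4%), a larger share than the 1890 of all 19104 genes. The medians of the 28 were 0.891 in WT, 0.864 in the *Pld6* KO and 0.330 in the *Dnmt3l* KO. In *Dnmt3l* KO, 22 were lower by at least 0.3 (78.6%, compared with 74.4% of the class). *Sun5*, which joins the sperm head to the tail, had 32 of 35 calls methylated in WT, 57 of 61 in the *Pld6* KO and 13 of 33 in the *Dnmt3l* KO. *Gapdhs*, the glycolytic enzyme of sperm, was at 0.947, 0.818 and 0.250. Below 0.2 in WT were *Pgk2* and *Pdha2*, retrocopies that replace the X-linked genes of phosphoglycerate kinase and of a pyruvate dehydrogenase subunit in male germ cells. *Pgk2* had 2 of 36, 12 of 58 and 0 of 21 calls methylated, and *Pdha2* 3 of 21, 5 of 16 and 0 of 15.

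**Figure D5:**
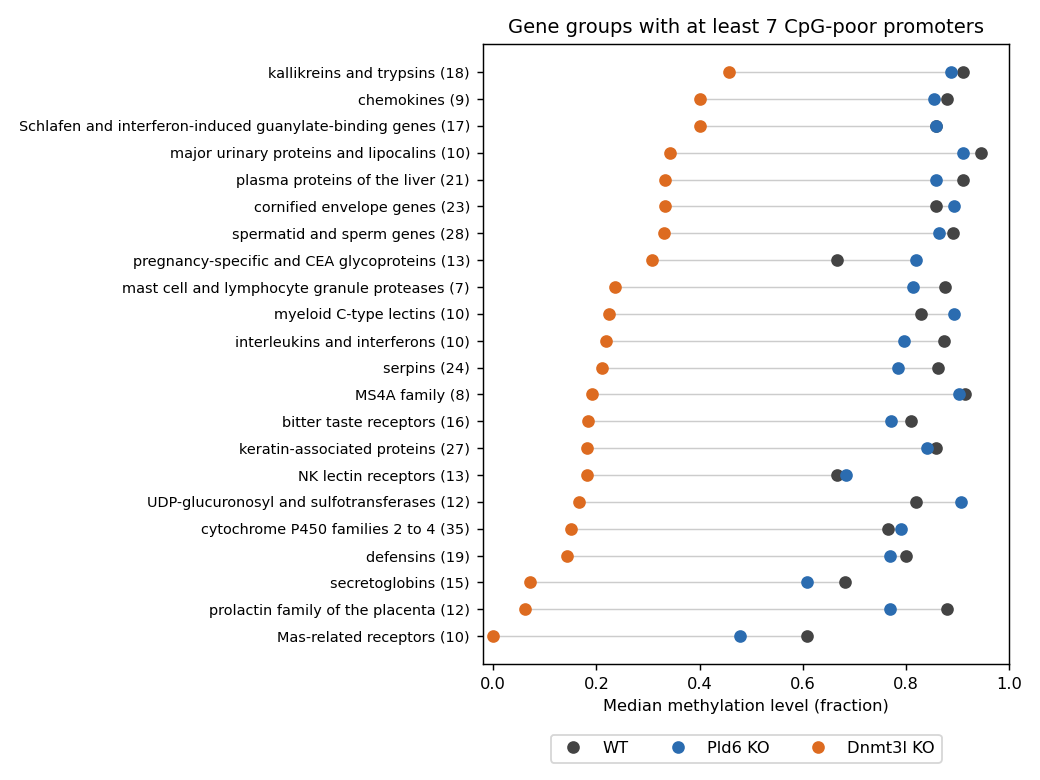
Median methylation level (fraction) in WT, *Pld6* KO and *Dnmt3l* KO of the 22 gene groups with at least 7 CpG-poor promoters (number in brackets), ordered by the median in *Dnmt3l* KO. The *Dnmt3l* KO points run from 0 to 0.458, and those of WT and *Pld6* KO lie to their right in each of these groups.

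Of 40 genes listed by name as textbook examples of tissue-specific expression, 9 were CpG-poor promoters with enough calls, and of 11 genes listed beside a retrotransposon, 4. Of the rest of both lists, 5 had too few calls, 1 was no autosomal protein-coding gene and 32 had another CpG number. *Alb* was at 0.879 (29 of 33 calls) in WT, 0.878 (36 of 41) in the *Pld6* KO and 0.727 (8 of 11) in the *Dnmt3l* KO. Its flanks were at 0.336 in *Dnmt3l* KO. *Cyp7a1*, the rate-limiting enzyme of bile acid synthesis, had 20 of 28, 33 of 39 and 7 of 12 calls methylated. *Myh6*, the heart's alpha myosin heavy chain, had 19 of 23, 36 of 41 and 9 of 13. *Mpo*, the myeloperoxidase of neutrophils, had 19 of 26, 41 of 50 and 4 of 7. These 4 promoters kept over 0.5 in *Dnmt3l* KO, with lower interval bounds of 0.434, 0.320, 0.424 and 0.250.

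The other 5 textbook genes were lower in *Dnmt3l* KO by more than 0.3. *Il2* was at 0.882 in WT and 0.364 (interval 0.152 to 0.646) in *Dnmt3l* KO. *Csn3*, the kappa-casein of milk, had 13 of 16 calls methylated in WT and 1 of 6 in *Dnmt3l* KO. *Prl*, the pituitary hormone prolactin, had 13 of 13 and 2 of 5, and *Gh*, growth hormone, 11 of 15 and 2 of 5. *Ambn*, a protein of tooth enamel, had 12 of 14 and 5 of 12. None of the 9 passed Fisher's exact test for *Dnmt3l* KO against WT, and the lowest adjusted p by this test was 0.0536 for *Il2*. They had 5 to 13 calls in *Dnmt3l* KO, and a p that misses the threshold does not show that the level was kept.

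Among the 4 genes listed beside a retrotransposon, *Tecrl*, a gene of the heart, had 10 of 27 calls methylated in WT, 15 of 32 in the *Pld6* KO and 0 of 25 in the *Dnmt3l* KO (adjusted p = 0.00602 by Fisher's exact test). *Gc*, the vitamin D-binding protein, had 10 of 22, 7 of 17 and 1 of 11. *Caps2* had 4 of 5, 22 of 25 and 3 of 13. *Cdh19*, a cadherin of glial cells, was low in each library, with 1 of 9, 0 of 15 and 0 of 9. None of these 4 was lower than WT by 0.3 in *Pld6* KO. Matches to the L1Md_A stretch that the study amplified by bisulfite-PCR (90% identity or more, over 90% of its length or more) lay within 5 kb of only 2 of the 1890 windows. *Hsd3b5*, a steroid dehydrogenase, had 12 of 14, 11 of 11 and 0 of 6 calls methylated, and *Ces1g*, a carboxylesterase, 10 of 11, 11 of 16 and 2 of 8. The 43 decreases in *Pld6* KO were among the other 1888 windows. With only 2 windows near a match, this cannot show whether decreases differ with distance to L1Md_A.

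The promoters with the lowest levels in WT were picked from the 85 with at least 20 calls in each library (*Pgk2*, given above, is also among the 6 lowest), and their values are a description. *Neurod4* had 1 of 22 calls methylated in WT, 5 of 72 in the *Pld6* KO and 0 of 27 in the *Dnmt3l* KO, while its flanks were at 0.853, 0.764 and 0.115. *Urah*, an enzyme of uric acid breakdown, had 2 of 25, 7 of 41 and 0 of 20, and *Tmeff2*, a transmembrane protein with follistatin modules, 2 of 22, 6 of 26 and 1 of 26. *H2-Eb2*, of the class II histocompatibility genes, had 9 of 47, 17 of 57 and 1 of 24. *Scgb2b26*, a secretoglobin, had 4 of 21, 23 of 45 and 1 of 20, so that it was low in WT and intermediate in *Pld6* KO. In the class as a whole, 38 promoters were below 0.2 in both WT and *Pld6* KO, and 36 of these were below 0.2 in *Dnmt3l* KO too. Their flanks had median levels of 0.677, 0.671 and 0.175. Chosen after their values were seen, *Six4* (1 of 16, 2 of 37 and 0 of 15), *Dio2* (1 of 24, 3 of 24 and 0 of 19) and *Slitrk6* (2 of 26, 2 of 24 and 0 of 9) are examples with developmental or hormonal roles. Their windows hold 13, 16 and 14 CG in the reference. Many others of the 38 also hold more than 12 there, up to 83 in *Gm2446*, and are members by their covered positions only. The WT flanks of *Six4* were at 0.260. A CpG-dense stretch began downstream at 10 of the 38 (26.3%), compared with 15.3% of the class. Symbols of predicted or unnamed genes (*Gm*, *LOC*, *AW* and Rik) made up 14 of the 38 (36.8%), compared with 14.1% of the 1890 and 5.25% of all promoters.

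The 6 highest levels in *Dnmt3l* KO among the 85 well covered promoters lay between 0.636 and 0.8. *Dennd4a* had 27 of 35 calls methylated in WT, 34 of 37 in the *Pld6* KO and 20 of 25 in the *Dnmt3l* KO, and its flanks were at 0.290 in *Dnmt3l* KO. *Gm36375* had 22 of 28, 52 of 66 and 19 of 26. *Myh7b*, a slow-muscle myosin, had 29 of 37, 31 of 41 and 17 of 26. *Strc*, the stereocilin of hair cells, had 29 of 32, 37 of 40 and 15 of 23, *1700001O22Rik* 26 of 31, 58 of 62 and 15 of 23, and *Lcn5*, a lipocalin of the epididymis, 25 of 27, 24 of 27 and 14 of 22. *Dennd4a* was 0.0286 higher in *Dnmt3l* KO than in WT, *Gm36375* was 0.0549 lower, and *Lcn5*, with the largest difference of the 6, was 0.290 lower.

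At the other end were *Ntng1*, an axon guidance protein, with 18 of 21 calls methylated in WT and 1 of 23 in *Dnmt3l* KO, and *Best3*, a chloride channel, with 26 of 30 and 2 of 27. *Spata46*, a protein of the sperm head, had 44 of 45 and 5 of 26, and *Gm5414* had 29 of 31 and 5 of 25. *Cyp2d12* had 18 of 20 and 3 of 20, and *S100a3*, a calcium-binding protein of hair, 21 of 24 and 3 of 21. In *Pld6* KO these 6 promoters were at 0.816 to 0.897.

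The largest decreases in *Pld6* KO in the same set were smaller. *Tnfrsf26* had 25 of 39 calls methylated in WT and 12 of 35 in *Pld6* KO, a decrease of 0.298, and 5 of 21 in *Dnmt3l* KO. *Smok2a*, a sperm kinase gene, had 21 of 35, 26 of 75 and 2 of 22. *Epb42*, a protein of the red cell membrane, had 36 of 37, 44 of 57 and 7 of 26. *Eppin*, a protein of the sperm surface, had 26 of 39, 18 of 36 and 13 of 23, and *Ifnab* and *Lcn15* were lower by 0.151 and 0.145. The largest increases were at *Wdr1*, an actin regulator, with 14 of 31 and 28 of 36, at *Scgb2b26*, and at *Sys1*, a protein of the Golgi, with 19 of 30 and 38 of 40.

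The letters TATAAA, the core of the TATA box, were searched on the strand of the gene from 40 to 15 bases before the start. They were found in 132 of the 1890 CpG-poor promoters (6.98%), compared with 2.22% of all promoters. The promoters with these letters had median levels of 0.845, 0.830 and 0.286 in WT, *Pld6* KO and *Dnmt3l* KO, and those without them 0.840, 0.842 and 0.286. *Il2* holds them and *Alb* does not. Across the 19 autosomes, the medians of the class lay between 0.811 and 0.867 in WT, between 0.811 and 0.874 in the *Pld6* KO and between 0.2 and 0.4 in the *Dnmt3l* KO.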

How the data were processed

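Libraries were made by post-bisulfite adaptor tagging, and the authors mapped the trimmed reads to mm10 with Bismark, keeping unique alignments (tool and build are also in the submitters' processing notes). The analysis used 1 file for each genotype. The deposited files hold, per CpG site, counts of methylated and of unmethylated calls. They also hold a fraction computed by the authors from these counts, which was not used. All 17571641 autosomal positions lay at the C of a CG of GRCm38.p6, with the calls of both strands on 1 position. No removal of duplicate reads is stated in the sources used here.

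Starts were taken from the RefSeq annotation of GRCm38.p6. Counts of calls were pooled over each window with Python 3.11.15, numpy 2.4.6, scipy 1.17.1 and pandas 2.3.3, and L1Md_A matches were found with BLAST+ 2.17.0. Steps were tested on simulated data. Promoters are not replicates, so that medians and shares are descriptions. Fisher's exact tests compare libraries, and linked calls of a read can make their p-values too small. The members, gene groups and lists were chosen with earlier results of these data known. Genes named are the listed tissue genes and genes beside a retrotransposon that are members, the extremes among promoters with at least 20 calls in each library (6 lowest in WT, 6 highest in Dnmt3l KO, 6 largest decreases in each KO and 3 largest increases in Pld6 KO), members of the gene groups, and genes said to be chosen after their values were seen. The examples within the gene groups were also chosen after their values were seen. Sequences were read from the GRCm38.p6 genome and were identical to the RefSeq promoter table at all 7868 promoters listed in both. Whether animals were pooled is not given in the sources used here. Alternatives changed the call minimum, window, pooling, CpG count, overlap, threshold, flanks and starts.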

Additional observations from a re-analysis of the deposited data

How the results depend on the processing

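Of 102 values under alternatives, 74 stayed within the interval of the main value (or, for shares, within 1.5 times of it). This interval of a median is no Wilson interval. It was taken from the ranked values of the promoters and treats them as independent, so that it serves only as a yardstick. At least 20 calls left 85 promoters, with medians of 0.853 in WT and 0.855 in *Pld6* KO, 0% lower in *Pld6* KO, and a *Dnmt3l* KO difference to the flanks of -0.0129, the only reversal. At least 10 calls gave 0.802% lower in *Pld6* KO and a WT difference to the flanks of 0.0562. From 500 bp upstream, the *Dnmt3l* KO median was 0.250 and the difference to the flanks was 0.0588 for *Pld6* KO and 0 for *Dnmt3l* KO. From 2000 bp upstream, the *Dnmt3l* KO difference to the flanks was 0.0393, and 1.27% were lower and 1.80% higher in *Pld6* KO. The mean of site levels gave 3.70% lower in *Pld6* KO. A difference of 0.2 gave 7.41% lower and 8.20% higher in *Pld6* KO. One of 0.5 gave 46.9% lower in *Dnmt3l* KO, 0.265% lower in *Pld6* KO and 0.370% higher. Fisher's exact test gave 42.1%, 0% and 0.423%. Flanks of 50 kb gave differences of 0.106 in WT and 0.0948 in *Pld6* KO. With 2 alternatives chosen after seeing the data, these were 0.0454 and 0.0482 with curated starts (1422 promoters), and 0.0519 and 0.0573 without promoters beside a dense stretch, where the WT median was 0.851. The cause of these shifts was not tested, except that stricter call minimums and thresholds keep fewer promoters by construction.

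No paired analysis was possible because 1 library per genotype was analysed. The depth of *Dnmt3l* KO, with a median of 9 calls, limits what can be said of a single promoter. No group had enough samples to look for a sample apart from the others.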

Other observations

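The 772 windows with 3 to 12 CpG positions and too few calls in some library are not counted above. Pooled over all of them, the level was 0.784 (interval 0.774 to 0.793) in WT, 0.795 (0.787 to 0.802) in *Pld6* KO and 0.290 (0.271 to 0.310) in *Dnmt3l* KO.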
